A study of Mus musculus with 9 samples.

Results

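The mitochondrial protein import genes were taken by name from GENCODE M21, as the protein-coding genes whose symbol starts with Timm or Tomm plus Hspa9, Hspd1, Hspe1, Pam16, Dnajc19, Pmpca, Pmpcb and Grpel1. This gave 34 of 21938 genes. The study asks how Ets1 acts on mitochondria when white fat turns beige, and the lists show where Ets1 was found and how chromatin stood when Ets1 was raised or removed in adipocytes. The import genes were described in 9 peak lists from mouse fat, each called from 1 library. The transcription factor Ets1 was mapped by CUT&Tag in beige adipocytes (beige), which were differentiated for 6 days in culture from stromal vascular cells of male C57BL/6J mice of 3 to 4 weeks. It was also mapped in mature adipocytes, the floating fraction of collagenase-digested inguinal fat of male wild-type C57 mice aged 8 to 10 weeks, after 7 days of cold stress (CS) or at room temperature (RT). H3K27ac, an acetyl mark of active promoters and enhancers, was profiled by CUT&Tag in the same adipocyte fraction of EA+/+ and EC+/+ mice and of EAKO and Flox mice. Open chromatin was profiled by ATAC in EAKO and Flox adipocytes. Male mice of 8 to 10 weeks were used for these lists too. EA+/+ mice carried the Ets1 knock-in, an Ets1-2A-EGFP cassette behind a loxP-flanked stop at the Hipp11 locus, together with Adipoq-cre, and EC+/+ mice carried the knock-in without Cre. EAKO mice carried floxed Ets1 with Adipoq-cre, and Flox mice carried floxed Ets1 without Cre. Adipoq-cre acts in adipocytes, so other cells of the fraction keep their own Ets1. Housing was at ordinary room temperature and was changed only for cold stress, and the labels name no cold stress for the EA+/+, EC+/+, EAKO and Flox mice.

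Most mitochondrial proteins are made in the cytosol and carried through the outer membrane by the TOM complex. Precursors with a presequence then pass the inner membrane through the TIM23 channel, drawn in by a motor built on the chaperone Hspa9, while carrier proteins are escorted by small TIM chaperones to the TIM22 complex. In the matrix the presequence is removed by the processing peptidase of Pmpca and Pmpcb, and Hspd1 with Hspe1 folds the new protein. Brown and beige fat cells hold many mitochondria, and mitochondria depend on this pathway for most of their proteins.

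A gene had a promoter peak where a peak overlapped a window of 1 kb on either side of any of its transcription start sites. The score of a peak is its −log10 q as the peak caller gave it, and the rank is given as the top percent of that list, so that a peak in the top 1% stands above nearly all peaks of its library. Peaks with tied scores share the best rank number, while the top percent counts all tied peaks. It can therefore exceed the rank number over the list size, mostly at low scores. Scores depend on the depth and background of a library and are set side by side here, never divided. With 1 library per group no difference could be tested, and nothing is known of how animals vary. The lists differed in size. Beige, CS and RT held 30553, 14858 and 4056 Ets1 peaks, EA+/+ and EC+/+ held 38484 and 33713 H3K27ac peaks, EAKO and Flox held 74682 and 86834, and the ATAC lists of EAKO and Flox held 82839 and 88977. A gene's absence from a shorter list cannot be told apart from a lower yield of that library. Of 10 adipocyte markers, 7 had a promoter peak in the ATAC list of EAKO and 7 in that of Flox, while the defining genes Adipoq and Cidec had none in any list. Promoter peaks in the Flox ATAC list were also present at 5 of 6 progenitor, 2 of 6 macrophage, 3 of 4 endothelial, 0 of 4 lymphocyte and 3 of 4 skeletal muscle markers. Among all genes, 66.0% had an ATAC promoter peak in EAKO and 67.7% in Flox, so these counts do not show which cells were present. The part of other cells in the results on import genes was not tested.

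The sequences below show the pair of genes with the strongest peak, the gene with the strongest CS peak, members with the ETS letters near the beige summit, and a member that holds the same letters but had no Ets1 peak. They run 250 bases before to 50 bases after a RefSeq start site, on GRCm38.p6 and read in the direction of the named gene, so the last 50 bases are the start of its transcript. Capitals mark CCGGAA on either strand, a form of the ETS binding sequence whose core is GGAA.
Hspe1 promoter, chr1:55087898-55088197, plus strand: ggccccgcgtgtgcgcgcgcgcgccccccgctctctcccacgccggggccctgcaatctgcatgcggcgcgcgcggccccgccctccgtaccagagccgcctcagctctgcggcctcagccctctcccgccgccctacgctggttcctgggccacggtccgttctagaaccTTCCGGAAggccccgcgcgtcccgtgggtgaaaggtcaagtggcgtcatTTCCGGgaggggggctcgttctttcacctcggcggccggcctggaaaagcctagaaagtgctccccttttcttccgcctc
Tomm70a promoter, chr16:57121464-57121763, plus strand: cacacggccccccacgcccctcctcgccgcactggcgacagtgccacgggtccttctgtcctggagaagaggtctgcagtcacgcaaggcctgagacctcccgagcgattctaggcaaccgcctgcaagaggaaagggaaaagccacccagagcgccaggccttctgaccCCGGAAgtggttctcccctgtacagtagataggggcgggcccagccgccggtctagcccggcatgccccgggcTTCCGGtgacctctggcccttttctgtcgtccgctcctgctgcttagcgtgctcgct
Timm10b promoter, chr7:105640195-105640494, plus strand: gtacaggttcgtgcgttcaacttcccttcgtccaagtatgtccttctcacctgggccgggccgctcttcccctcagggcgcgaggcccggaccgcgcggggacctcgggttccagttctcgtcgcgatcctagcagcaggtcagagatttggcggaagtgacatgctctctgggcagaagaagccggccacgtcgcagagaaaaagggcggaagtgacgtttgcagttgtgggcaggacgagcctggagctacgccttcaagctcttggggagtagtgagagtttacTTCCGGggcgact
Timmdc1 promoter, chr16:38522614-38522913, minus strand: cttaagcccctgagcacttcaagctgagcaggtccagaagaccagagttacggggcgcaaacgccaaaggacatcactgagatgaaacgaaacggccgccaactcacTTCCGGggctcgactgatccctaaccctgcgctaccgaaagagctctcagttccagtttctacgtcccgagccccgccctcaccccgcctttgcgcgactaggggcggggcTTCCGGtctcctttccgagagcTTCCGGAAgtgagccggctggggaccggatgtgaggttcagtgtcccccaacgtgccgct
Tomm22 promoter, chr15:79670618-79670917, plus strand: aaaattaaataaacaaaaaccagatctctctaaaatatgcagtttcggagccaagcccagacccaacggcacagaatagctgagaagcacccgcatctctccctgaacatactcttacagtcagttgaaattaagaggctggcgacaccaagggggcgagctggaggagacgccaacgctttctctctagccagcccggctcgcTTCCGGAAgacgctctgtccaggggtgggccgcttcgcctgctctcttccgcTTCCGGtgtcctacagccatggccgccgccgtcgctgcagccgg
Pmpcb promoter, chr5:21736910-21737209, plus strand: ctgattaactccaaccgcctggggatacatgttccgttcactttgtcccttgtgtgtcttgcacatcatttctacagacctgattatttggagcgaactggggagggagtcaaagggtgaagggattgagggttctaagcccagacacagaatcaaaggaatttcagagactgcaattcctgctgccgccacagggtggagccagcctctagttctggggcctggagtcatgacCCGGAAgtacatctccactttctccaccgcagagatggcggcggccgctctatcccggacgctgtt
The Ets1 peak of Tomm40 lay upstream of this window. The next sequence holds the 101 bases around its beige summit, at -457 bp from the nearest start site (negative is upstream) and outside the gene. Here the capitals mark CCAAT on either strand, the letters bound by NFY, and CCGGAA was not among them.
Tomm40 beige Ets1 summit, chr7:19715845-19715945, minus strand: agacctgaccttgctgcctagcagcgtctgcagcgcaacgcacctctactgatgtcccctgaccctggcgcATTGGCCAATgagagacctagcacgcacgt

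Ets1 promoter peaks were found at 31 of the 34 import genes in beige cells (91.2%, 95% Wilson interval 77.0 to 97.0%), at 19 in CS (55.9%, 39.5 to 71.1%) and at 3 in RT (8.82%, 3.05 to 23.0%). Among all genes the shares were 46.4% in beige, 32.7% in CS and 4.06% in RT. H3K27ac promoter peaks stood at 26 import genes in EA+/+ against 50.4% of all genes, and at 26 in EC+/+ against 52.0%. They stood at 32 import genes in EAKO against 60.5% of all genes, and at 32 in Flox against 63.9%. ATAC promoter peaks stood at 32 import genes in EAKO against 66.0% of all genes, and at 32 in Flox against 67.7%. Intervals cover counting error only, and they take Hspd1 and Hspe1, which share a single Ets1 peak in each list, as separate genes. Many genes are silent in fat, so the import genes were also set beside the 13468 genes that had both an ATAC and an H3K27ac promoter peak in Flox. Of those, 74.2% had an Ets1 promoter peak in beige, 51.7% in CS and 6.33% in RT, against 96.9%, 59.4% and 9.38% of the 32 import genes that met the same condition. In CS and RT the import genes thus stood close to other open, acetylated genes, and the gap was widest in beige cells. H3K27ac promoter peaks stood at 75.8% of the open and acetylated genes in EA+/+, 79.1% in EC+/+ and 93.9% in EAKO. The 32 import genes of that set had them at 81.2%, 81.2% and 100%. For ATAC in EAKO the shares were 98.2% and 100%, so in these lists too the import genes stood close to that set.

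**Figure D1:**
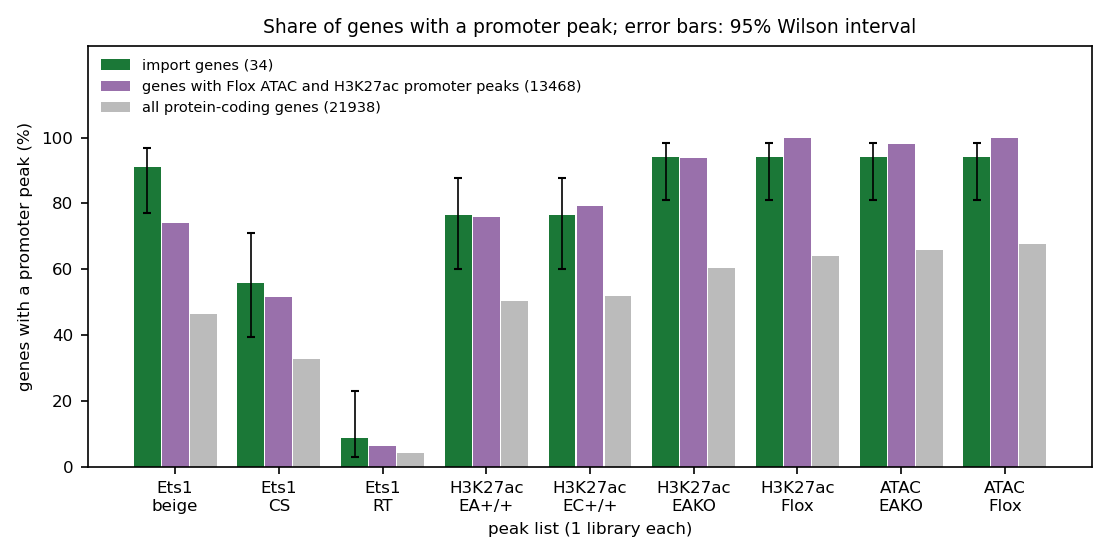
Share of genes with a promoter peak (vertical axis, percent) in each of the 9 lists, for the 34 import genes (green, with 95% Wilson intervals), the 13468 genes open and acetylated in Flox (purple) and all 21938 protein-coding genes (grey). The green bar exceeds the purple bar most in the beige Ets1 list, at 91.2% against 74.2%, and the purple bars of the Flox lists are at 100% by construction.

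The Ets1 lists were nested at these genes. In 3 genes, Hspd1, Hspe1 and Tomm40, a promoter peak was present in beige, CS and RT. In 16 genes it was present in beige and CS but not in RT, in 12 in beige alone, and in 3 (Pmpcb, Timm8a2 and Tomm20l) in none. No import gene had an Ets1 promoter peak in CS or RT that was missing in beige. The nesting held for the whole lists, which are longest in beige. When beige was cut to its 14858 best peaks, the number in CS, Pam16 and Timm10 had a promoter peak in CS alone, against 7.49% of all genes.

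Between CS and RT, 3 import genes had a promoter peak in both lists, where 3.63% of all genes did, and 16 had one in CS alone, where 29.1% of all genes and 45.9% of the open and acetylated genes did. None had one in RT alone, against 0.428% of all genes. The 16 genes were Grpel1, Hspa9, Pam16, Timm10, Timm10b, Timm13, Timm17a, Timm17b, Timm21, Timm8b, Timm9, Timmdc1, Tomm20, Tomm34, Tomm6 and Tomm70a. In the 3 shared genes the peak stood nearer the top of the list in CS, as in 93.3% of all genes with a peak in both lists. When CS was cut to its 4056 best peaks, the number in RT, 9 import genes had a promoter peak in CS alone, against 12.8% of all genes.

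Beige and CS, which is the same CS list, shared promoter peaks at 19 import genes, where 29.3% of all genes did. Another 12 had one in beige alone, against 17.1% of all genes and 26.6% of the open and acetylated genes, and 0 in CS alone, against 3.39%. The peaks overlapped in 18 of the 19 genes, or 94.7%, and in 94.1% of all genes with a peak in both. The exception was Tomm6, a small TOM subunit, whose CS summit lay 1002 bp from the beige summit. In 15 of the 19 genes the strongest peak stood nearer the top in beige than in CS, against 67.5% of all genes. The 4 others were Pam16, Timm10, Timm17b and Tomm70a. Cultured and in vivo cells, mouse age and treatment differed together between beige and CS and cannot be told apart.

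Hspd1 and Hspe1, the chaperonin and its co-chaperonin, are transcribed away from each other on chromosome 1. They share the strongest Ets1 peak at an import gene, a single promoter peak of both. Its score was 248 in beige (55087684 to 55088427), 12.3 in CS (55087450 to 55088216) and 3.84 in RT (55087518 to 55088067). It ranked 37 of 30553 peaks in beige (top 0.121%), 909 of 14858 in CS (top 6.12%) and 1526 of 4056 in RT (top 43.0%). The beige peak covered every start site of both genes, and the CS peak a start site of each. The RT peak covered a start site of Hspd1 and ended before those of Hspe1. The beige summit at 55088017 lay 7 bp downstream of an Hspd1 start site, in a noncoding part of an exon, and at -115 bp from Hspe1. In the Hspe1 sequence above, a TTCCGGAA run lay within 50 bases of the CS summit and not of the beige or RT summit. It lay only just beyond 50 bases from the beige summit, inside the beige and CS peaks and past the end of the RT peak. That run overlaps the heat shock letters GAANNTTC. H3K27ac at this promoter scored 5.44 in EA+/+ (top 18.4%) and 6.07 in EC+/+ (rank 7062 of 33713), and 17.7 in EAKO (top 17.7%) and 28.7 in Flox (top 10.0%). The ATAC peak scored 50.6 in EAKO (top 15.3%) and 50.1 in Flox (top 22.5%). Among all genes with a promoter peak, median H3K27ac ranks were the top 21.6% in EA+/+ and 21.3% in EC+/+, and the top 13.0% in EAKO and 11.1% in Flox, and median ATAC ranks were the top 14.6% in EAKO and 12.1% in Flox. In each H3K27ac and ATAC list this promoter held 2 peaks, and only the stronger was ranked. The ranked EC+/+ peak (55086879 to 55087615) did not overlap the beige Ets1 peak. By the rank of its stronger peak, the promoter with the strongest Ets1 peak in beige did not stand out in the other marks.

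Tomm40 encodes the channel of the outer membrane. Its Ets1 score was 139 in beige (top 0.599%), 14.7 in CS (top 4.15%) and 4.80 in RT (top 26.2%), with summits at -457, -427 and -302 bp from a start site. H3K27ac scored 1.44 in EA+/+ (top 96.7%) and 4.30 in EC+/+ (top 37.7%), where the strongest peaks did not overlap, and 51.6 in EAKO (top 3.25%) and 45.1 in Flox (top 5.02%). The ATAC score was 167 in EAKO (top 0.220%) and 163 in Flox (top 1.50%). No other protein-coding gene had a start site within 1 kb of its Ets1 peaks.

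Tomm70a, a receptor for carrier precursors, had the strongest CS peak of the import genes. Its score was 86.9 in beige (rank 546, top 1.79%) and 22.8 in CS (rank 206, top 1.39%), with no promoter peak in RT. The beige and CS summits lay 1 base apart, at -48 and -49 bp from a start site, and CCGGAAGT stood within 50 bases of both. H3K27ac scored 12.2 in EA+/+ (top 2.27%), 22.5 in EC+/+ (top 0.780%), 118 in EAKO (top 0.234%) and 112 in Flox (top 0.381%). ATAC scored 150 in EAKO (top 0.518%) and 191 in Flox (top 0.450%). It stood within the top 3% of its list in all 8 lists that held it.

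Hspa9, the matrix chaperone that drives the motor, scored 44.8 in beige (top 5.59%) and 11.5 in CS (top 7.08%) for Ets1. It carried the strongest H3K27ac promoter peak of the import genes in EAKO and in Flox. That peak scored 185 in EAKO (rank 33, top 0.0442%) and 200 in Flox (rank 39, top 0.0449%), against 9.20 in EA+/+ (top 5.18%) and 9.06 in EC+/+ (top 9.82%) in the shorter lists. Its ATAC score was 93.9 in EAKO (top 4.55%) and 130 in Flox (top 4.19%).

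Timm10b, a small TIM of the TIM22 complex, differed most in rank between beige and CS among the 5 genes with the highest beige scores. It scored 80.5 in beige (top 2.09%) and 3.12 in CS (top 58.6%). The same promoter lies within 1 kb of start sites of Arfip2 and Gm45799. H3K27ac there scored 3.60 in EA+/+ (top 41.1%), 7.44 in EC+/+ (top 14.6%), 55.5 in EAKO (top 2.76%) and 57.7 in Flox (top 3.09%), and ATAC scored 98.0 in EAKO (top 4.02%) and 142 in Flox (top 3.03%).

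**Figure D2:**
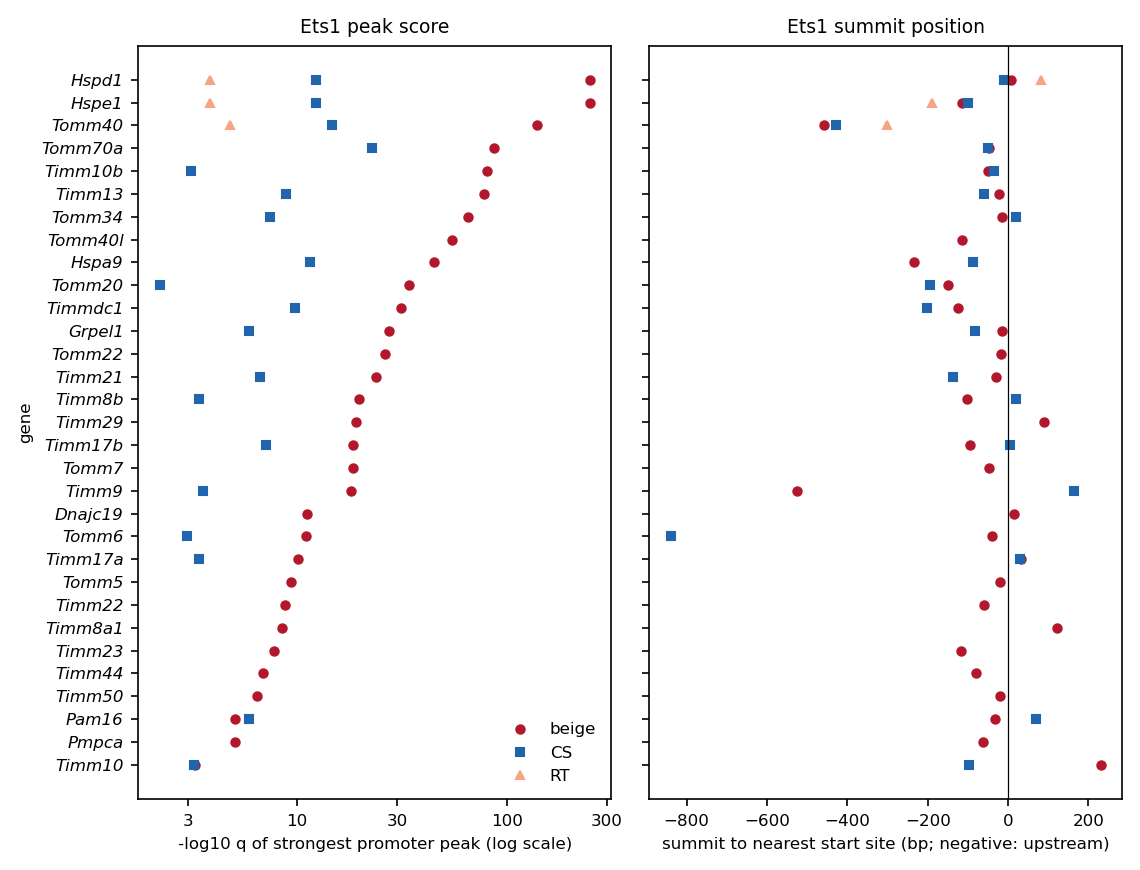
Left, −log10 q (log axis) of the strongest Ets1 promoter peak of each of the 31 import genes with a beige peak, in beige (circles), CS (squares) and RT (triangles). Right, distance in bp from that peak's summit to the nearest start site, negative upstream. Hspd1, Hspe1 and Tomm40 alone have all 3 symbols, and most summits lie within 250 bp of a start site, with those of Tomm40, the beige peak of Timm9 and the CS peak of Tomm6 further upstream.

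By role, the TOM group had Ets1 promoter peaks at 9 of 10 genes in beige, 5 in CS and 1 in RT. The CS genes were the receptors Tomm20 and Tomm70a, the channel Tomm40, the small subunit Tomm6 and the cytosolic co-chaperone Tomm34. The CS peak of Tomm6 scored 2.99, with its summit at -840 bp from the nearest start site. With basic transcripts Tomm6 had no CS promoter peak, and at −log10 q of at least 3 neither Tomm6 nor Tomm20 had one. Tomm34 scored 64.9 in beige and 7.44 in CS, and Tomm20 scored 34.2 and 2.21. The receptor Tomm22 and the small subunits Tomm5 and Tomm7 had peaks in beige alone, with scores of 26.2, 9.32 and 18.4. Tomm40l, a paralogue of Tomm40, scored 54.4 in beige (top 4.02%), the highest score of the 12 genes with a peak in beige alone.

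The TIM23 group, the channel for presequence proteins, had Ets1 peaks at 5 of 5 genes in beige and 3 in CS. The genes in both were Timm17a, Timm17b and Timm21, with beige scores of 10.1, 18.5 and 23.8 and CS scores of 3.41, 7.07 and 6.62. The channel protein Timm23 and the receptor Timm50 had peaks in beige alone, scored 7.77 and 6.41. All 5 genes had a promoter peak in all 4 H3K27ac lists. For Timm50 the EA+/+ peak lay at another of its start sites, with its summit 5701 bp from the EC+/+ summit. That peak overlapped no Flox ATAC or Flox H3K27ac peak. With basic transcripts, Timm50 had a promoter peak in EC+/+ and none in EA+/+.

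The TIM22 and small TIM group had Ets1 peaks at 8 of 9 genes in beige and 5 in CS. The small TIM chaperones Timm8b, Timm9, Timm10 and Timm13 scored 19.7, 18.1, 3.27 and 77.6 in beige and 3.41, 3.54, 3.22 and 8.87 in CS, and Timm10b is described above. The channel Timm22, its partner Timm29 and the small TIM Timm8a1 had peaks in beige alone, scored 8.73, 19.1 and 8.50. Timm8a2, a paralogue of Timm8a1, had no promoter peak in any of the 9 lists.

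The motor and folding group had Ets1 peaks at 7 of 7 genes in beige, 5 in CS and 2 in RT, and all 7 were acetylated in all 4 H3K27ac lists. Grpel1, the exchange factor of Hspa9, scored 27.3 in beige and 5.87 in CS. Pam16, a regulator of the motor, was 1 of the 4 genes that stood nearer the top in CS, with a score of 5.06 in beige (top 61.3%) and 5.87 in CS (top 24.6%). Timm44, which tethers the motor, and its co-chaperone Dnajc19 had peaks in beige alone, scored 6.89 and 11.1.

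Of the processing peptidase, Pmpca had an Ets1 peak in beige alone with a score of 5.06, and Pmpcb had none in any Ets1 list. Pmpcb was open and acetylated. Its ATAC score was 13.7 in EAKO (top 54.8%) and 29.4 in Flox (top 37.6%), and its H3K27ac score was 14.8 in EAKO (top 21.8%) and 17.6 in Flox (top 17.8%), 1.38 in EA+/+ (top 99.4%) and 2.02 in EC+/+ (top 90.5%). Timmdc1, an assembly factor of respiratory complex I named for its likeness to the TIM channel proteins, scored 31.3 in beige and 9.76 in CS. Tomm20l, a paralogue of Tomm20, had no promoter peak in any list.

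**Figure D3:**
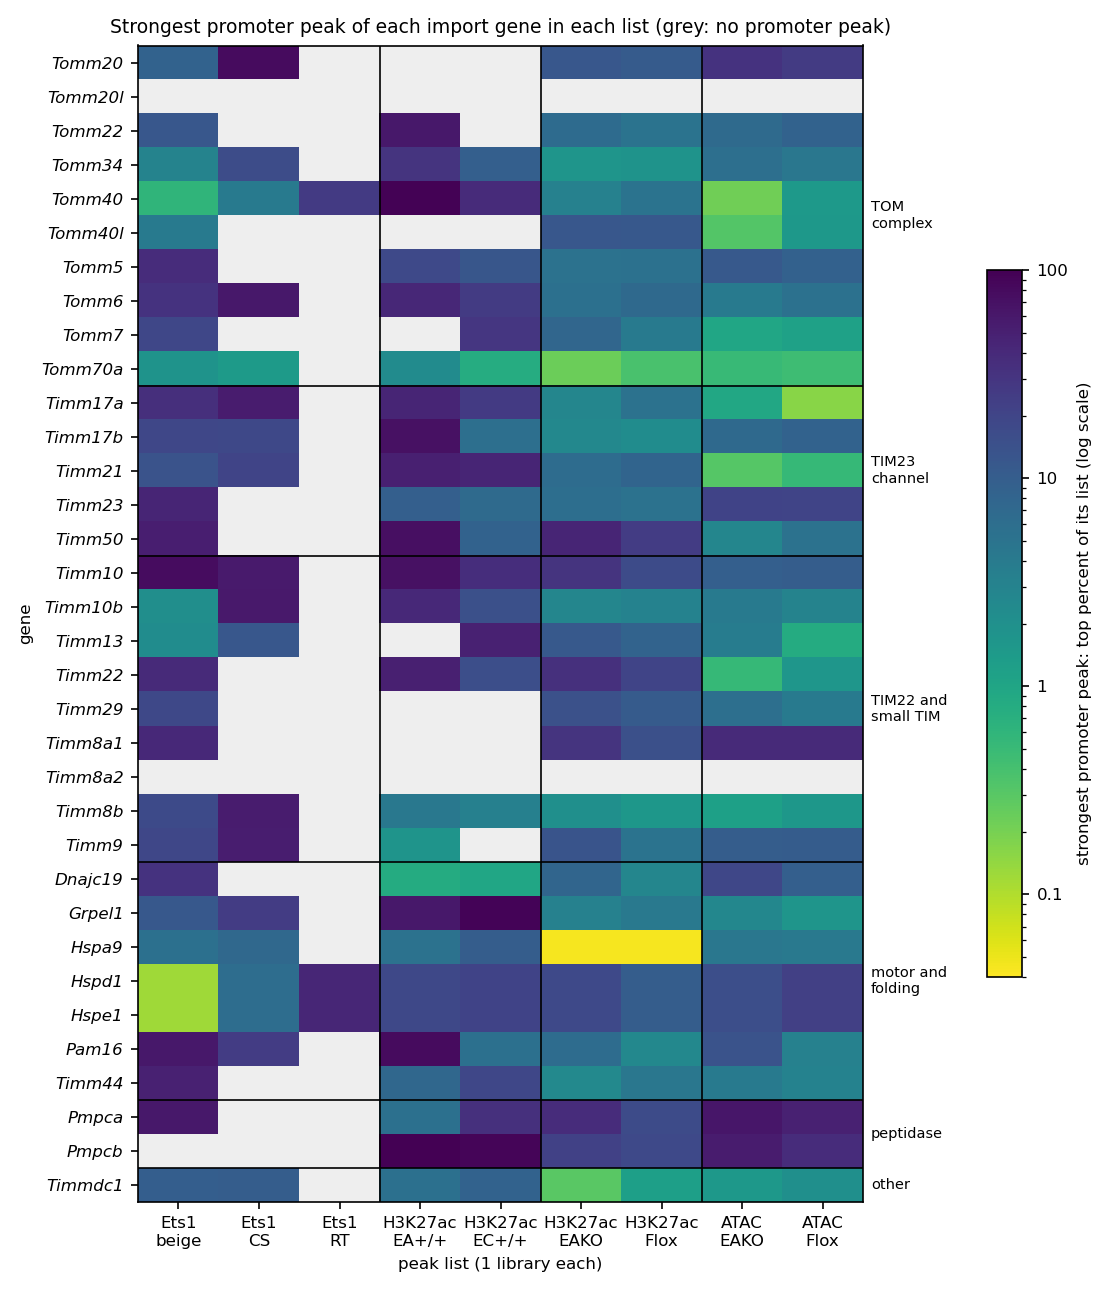
Strongest promoter peak of each of the 34 import genes (rows, grouped by role) in each of the 9 lists (columns), coloured by its top percent in the list on a log scale, with grey for no promoter peak. Hspd1, Hspe1 and Tomm40 are coloured in all 9 columns, Timm8a2 and Tomm20l in none, and the brightest cells are Hspa9 in the H3K27ac lists of EAKO and Flox.

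Ets1 summits at import genes lay close to start sites, within 250 bp in 29 of 31 genes in beige, where 82.1% of all genes with a promoter peak did, in 17 of 19 in CS, where 77.7% did, and in 2 of 3 in RT, where 70.1% did. The median distance was 60.0 bp in beige and 82.0 bp in CS. In beige 23 of the 31 summits lay outside the gene and 8 in a noncoding part of an exon. In CS 9 of 19 lay outside the gene, 9 in a noncoding part of an exon and 1 in an intron. Summits of all genes were not counted by gene part, so these counts cannot be read as particular to import genes. The strongest Ets1 promoter peaks of the import genes, 31 in beige, 19 in CS and 3 in RT, each overlapped a Flox ATAC peak and a Flox H3K27ac peak. The RT summit shared by Hspd1 and Hspe1 itself lay outside the Flox ATAC peaks. Most genes with an Ets1 promoter peak also had Flox ATAC and H3K27ac promoter peaks. These were 9996 of 10182 in beige, 6966 of 7177 in CS and 853 of 890 in RT. Overlap of the peaks themselves was not counted over all genes.

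Many import genes share their promoter with a neighbour. The strongest beige Ets1 peak was also a promoter peak of another protein-coding gene at 12 of 31 import genes (38.7%), against 24.2% of all genes with a beige promoter peak. In CS this held for 9 of 19 (47.4%), against 25.8%. Hspd1 and Hspe1 are both import genes, so their single peak is counted once for each of them. The pairs included Hspd1 with Hspe1, Timm8b with Sdhd (a subunit of respiratory complex II), Timm17b with Pqbp1, Timm23 with Parg, Timm9 with 2700049A03Rik and Tomm34 with Stk4. A peak list does not assign such a peak to 1 gene of the pair.

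RefSeq promoter sequences matched 30 of the 34 import genes and 16522 of all protein-coding genes. CCGGAA on either strand was found in 17 of the 30 (56.7%), in 21.5% of all promoters and in 28.6% of the 11479 with a Flox ATAC promoter peak. The longer CCGGAAGT, which contains it, was found in 8 of 30 (26.7%), against 5.94% of all and 8.16% of the open promoters. These were Pmpcb, Timm10, Timm10b, Timm23, Timm29, Timm8a2, Timmdc1 and Tomm70a. The letters did not follow the peaks within the group. CCGGAA was present in 9 of 17 genes with a CS peak and in 6 of 10 with a peak in beige alone, and also in Pmpcb and Timm8a2, which had no Ets1 peak. Around the summits, in windows of 101 bases, CCGGAA was found at 9 of 31 beige peaks of import genes (29.0%) and 14.0% of those of all genes, and at 5 of 19 CS peaks (26.3%) and 10.2% of those of all genes. In RT it was found at 0 of 3, against 5.51%. Hspd1 and Hspe1 share their summit window and letters. Their CCGGAA letters in the promoter sequences are also the same stretch of DNA, counted for both genes.

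Other letters were searched on both strands in the same promoters. The core GGAA was found in 30 of 30 import genes and 96.4% of all. GGGCGG, bound by SP and KLF factors, was found in 17 (56.7%), above the 51.0% of all promoters and below the 67.4% of the open ones. CCAAT was found in 10 (33.3%), against 42.1% of all and 42.3% of the open promoters. In the 101 bases around the summits, CCAAT was found at 5 of 31 beige peaks of import genes (16.1%), against 19.8% of those of all genes. In CS this held for 3 of 19 (15.8%), against 12.9%, and in RT for 1 of 3, against 17.3%. The Tomm40 sequence above is thus an example and not a trait of the group. ATGGCGG, bound by YY1, was found in 5 (16.7%), against 6.22% and 8.45%. GCGCATGC, bound by NRF1, was found in 2, Grpel1 and Timm13 (6.67%), against 4.11% and 5.55%. The TATA letters TATAAA were found in 3 (10.0%), below the 14.3% of all and above the 9.06% of the open promoters. GAANNTTC was found in 3, Hspd1, Hspe1 and Timm9 (10.0%), against 8.44% and 6.95%. The match of Hspd1 and Hspe1 is the same stretch of DNA, counted for both genes. A match describes letters and is not a measured binding site.

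For H3K27ac with the knock-in, EA+/+ and EC+/+ shared promoter peaks at 24 import genes, where 43.1% of all genes and 67.5% of the open and acetylated genes did. Timm9 and Tomm22 had one in EA+/+ alone, against 7.33% of all genes, and Timm13 and Tomm7 in EC+/+ alone, against 8.89%. The even split depended on the threshold. At −log10 q of at least 3, 1 gene was in EA+/+ alone, against 6.47% of all genes, and 7 in EC+/+ alone, against 10.9%. With equal numbers of best peaks, 2 were in EA+/+ alone, against 6.54%, and 4 in EC+/+ alone, against 9.94%. Timm9 scored 13.2 in EA+/+ (top 1.76%) with no promoter peak in EC+/+, and 22.3 in EAKO (top 13.3%) and 44.8 in Flox (top 5.09%). Its ATAC score was 66.3 in EAKO (top 9.92%) and 88.9 in Flox (top 10.2%). Tomm22 scored 2.77 in EA+/+ (top 61.1%), and 36.1 in EAKO (top 6.52%) and 44.6 in Flox (top 5.14%), with ATAC scores of 80.9 in EAKO (top 6.63%) and 98.3 in Flox (top 8.47%). Timm13 scored 3.67 in EC+/+ (top 49.4%), and 25.4 in EAKO (top 11.2%) and 32.8 in Flox (top 8.38%), and its ATAC peak ranked in the top 3.77% in EAKO and scored 179 in Flox (top 0.806%). Tomm7 scored 5.08 in EC+/+ (top 28.6%), and 33.0 in EAKO (top 7.55%) and 49.9 in Flox (top 4.14%), with ATAC scores of 136 in EAKO (top 0.977%) and 170 in Flox (top 1.14%). Timm9 thus ranked far nearer the top of its list than the 3 other genes found in 1 list only.

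Of the 24 genes with both peaks, 8 stood nearer the top in EA+/+ (33.3%), against 47.6% of all genes. Their median rank was the top 36.2% in EA+/+ and the top 14.9% in EC+/+. For all genes with a promoter peak in the list it was the top 21.6% in EA+/+ and 21.3% in EC+/+. The 24 include Timm50, whose EA+/+ peak (top 73.4%) lay at a different start site from its EC+/+ peak. Genes named here for a wide difference were chosen after their values were seen. Pam16 scored 2.20 in EA+/+ (top 80.4%) and 11.7 in EC+/+ (top 5.51%), and Timm17b scored 2.57 (top 70.8%) and 11.5 (top 5.71%). In the other direction Pmpca scored 8.99 in EA+/+ (top 5.49%) and 4.68 in EC+/+ (top 33.5%). Dnajc19 stood near the top in both, at the top 0.813% in EA+/+ and the top 0.970% in EC+/+. The promoter peaks overlapped in 20 of the 24 genes (83.3%), against 92.3% of all genes, and the summits of 12 (50.0%) lay within 250 bp of each other, against 68.6% of all genes. Timm29, Timm8a1, Tomm20 and Tomm40l, which were acetylated in EAKO and Flox, had no promoter peak in EA+/+ or EC+/+.

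With the knock-out, H3K27ac promoter peaks were found in EAKO and in Flox at the same 32 import genes. Among all genes 58.7% had both, and among the open and acetylated genes 93.9% did. None had one in EAKO alone, against 1.75% of all genes, or in Flox alone, against 5.18%. The peaks overlapped in 32 of 32, close to the 98.7% of all genes with a peak in both. The strongest peak stood nearer the top in EAKO in 12 of 32 genes (37.5%), close to the 37.6% of all genes. Median ranks were the top 6.38% in EAKO and 5.26% in Flox, against 13.0% and 11.1% for all genes with a promoter peak. Dnajc19 scored 32.7 in EAKO (top 7.68%) and 60.4 in Flox (top 2.79%), and Timmdc1 scored 111 (top 0.300%) and 82.9 (top 1.19%).

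ATAC gave the same 32 genes in EAKO and in Flox, where 65.2% of all genes and 98.2% of the open and acetylated genes had both. None was in EAKO alone, against 0.784% of all genes, or in Flox alone, against 2.54%, and all 32 pairs of peaks overlapped, close to the 99.7% of all genes with a peak in both. In 15 of 32 (46.9%) the peak stood nearer the top in EAKO, against 37.0% of all genes. Median ranks were the top 5.13% in EAKO and 4.34% in Flox, against 14.6% and 12.1% for all genes. Pam16 scored 54.5 in EAKO (top 13.7%) and 141 in Flox (top 3.17%). Timm22 scored 150 in EAKO (top 0.528%) and 161 in Flox (top 1.62%). The 2 genes without an ATAC promoter peak in either list were Timm8a2 and Tomm20l.

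**Figure D4:**
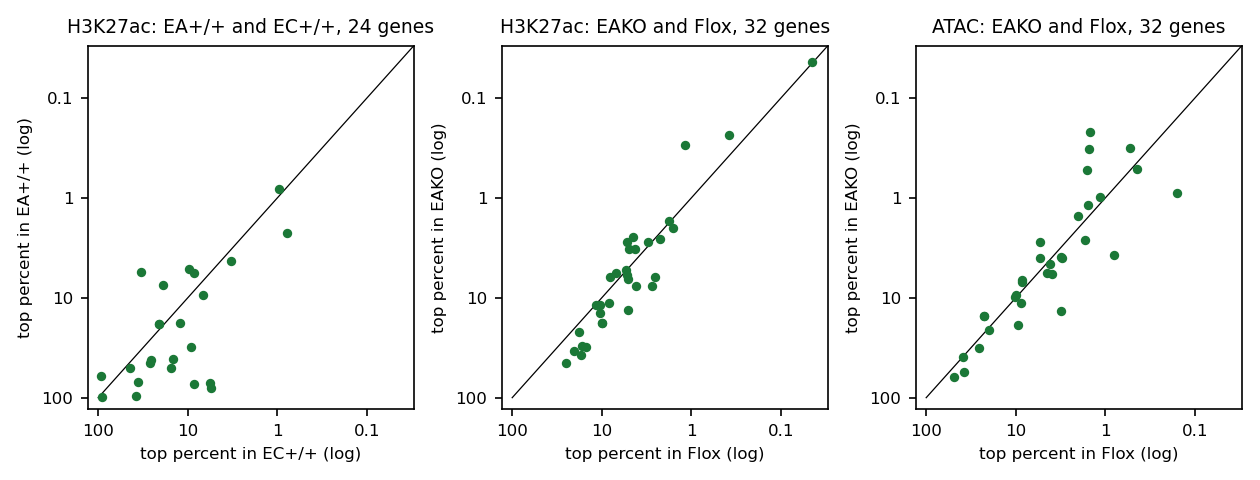
Rank of the strongest promoter peak as top percent of its list (log axes, strongest at the upper right), for the import genes with a peak in both lists. From left to right the panels show H3K27ac in EA+/+ (vertical) and EC+/+ (24 genes), H3K27ac in EAKO (vertical) and Flox (32 genes) and ATAC in EAKO (vertical) and Flox (32 genes). Points above the diagonal, which stand nearer the top in EA+/+ or EAKO, number 8, 12 and 15.

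Across the 4 H3K27ac lists, 24 of 34 import genes (70.6%) had a promoter peak in every list, against 40.5% of all genes. The share over the open and acetylated genes was not counted. In the single lists of EA+/+, EC+/+ and EAKO the import genes stood much closer to those genes than to all genes. The 24 comprised 7 motor and folding genes, 5 TIM23 genes, 5 TOM genes, 4 TIM22 and small TIM genes, both peptidase genes and Timmdc1. Timm50 counts among them through an EA+/+ peak at a different start site from its EC+/+ peak.

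A further list of 21 import genes outside the name rule, among them Samm50 (outer membrane assembly), Chchd4 and Gfer (the disulfide relay), Oxa1l (inner membrane insertion) and the matrix chaperone Trap1, gave Ets1 promoter peaks at 18 in beige, 13 in CS and 0 in RT. The shares of all genes were 46.4% in beige, 32.7% in CS and 4.06% in RT, and those of the open and acetylated genes were 74.2% in beige, 51.7% in CS and 6.33% in RT. Of the 21 genes, 13 had a peak in CS and not in RT, against 29.1% of all and 45.9% of the open and acetylated genes, and 6 in beige and not in CS, against 17.1% and 26.6%. H3K27ac promoter peaks stood at 19 in EA+/+ and 20 in EC+/+, against 50.4% and 52.0% of all genes, and at 21 in EAKO and 21 in Flox, against 60.5% and 63.9%. ATAC peaks stood at all 21 in both lists, against 66.0% in EAKO and 67.7% in Flox. Trap1 scored 23.9 in beige and 9.61 in CS for Ets1, Chchd4 scored 20.6 and 5.93, and Samm50 scored 17.0 in beige with no peak in CS. Mtx2, a metaxin of the outer membrane, had no Ets1 promoter peak in beige and one in CS, scored 3.66.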

How the data were processed

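Each of 9 libraries gave 1 list of peaks, from Ets1 or H3K27ac CUT&Tag or from ATAC. The authors trimmed reads with trimmomatic, aligned them with BWA to mm10 and used MACS2 per library with q below 0.05. Normal IgG is named among the CUT&Tag antibodies, and whether an IgG library served as control for MACS2, or regions were excluded, is not given in the sources used here. The deposited lists hold a score (10 times −log10 q), fold enrichment over background (a ratio), −log10 p and −log10 q, and these values are the authors'. The lists hold no read depth. The reporting summary states read totals, which were not used here. They were similar for CS and RT and for H3K27ac in EAKO and Flox. They were higher in beige than in CS, in EA+/+ than in EC+/+, and for ATAC in Flox than in EAKO. The reporting summary mentions ATAC replicates, and each list was treated as 1 library.

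Peaks were assigned with Python 3.11.15 and numpy 2.4.6 to windows of 1 kb around 93513 start sites of GENCODE M21 (GRCm38, the build of mm10), with an overlap of at least 1 bp, and ranked by −log10 q. The assignment was checked on simulated peaks. Promoter sequences came from RefSeq (GRCm38.p6, 30 of 34 genes matched). Shares carry Wilson 95% intervals. Alternatives were −log10 q of at least 3, windows of 3 kb, summits inside the window, basic transcripts, equal numbers of best peaks, and summits within 250 bp as overlap.

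Members and gene lists were chosen with earlier results of these data known. Values in every list were given for genes with an RT Ets1 peak, the 5 highest in CS and in beige, genes without an Ets1 peak, and genes in 1 list only of an H3K27ac or ATAC comparison or without a Flox ATAC peak.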

Additional observations from a re-analysis of the deposited data

How the results depend on the processing

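Of 80 alternatives over 20 counts, 73 stayed within 1.5 times the main count and 7 moved. With equal numbers of best peaks, 9 import genes had a promoter peak in CS alone against RT (main 16; 12.8% of all genes), 2 in CS alone against beige (Pam16 and Timm10, main 0; 7.49% of all genes) and 4 in EC+/+ alone against EA+/+ (Pmpcb, Timm13, Tomm40 and Tomm7, main 2; 9.94%). With −log10 q of at least 3, 1 was in EA+/+ alone (Timm9, main 2; 6.47% of all genes) and 7 in EC+/+ alone (main 2; 10.9%). With summits within 250 bp as the overlap, 12 genes shared a peak between EA+/+ and EC+/+ (main 20). With windows of 3 kb, 1 had an ATAC peak in Flox alone (Tomm20l, main 0; 2.19% of all genes). Equal lists hold fewer peaks of the longer list by construction. The cause of the other moves was not tested. No paired analysis was possible because each group had 1 library. An absent peak is one not called in that library, and read totals were not used to set its limit.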
